A study of Mus musculus with 6 samples.

Results

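The 6 genes described here encode proteins that take up or break down GABA and the monoamines: the GABA transporter Slc6a11, the enzymes Abat, Aldh5a1, Maoa and Maob, and the monoamine transporter Slc29a4. They were found by their symbol, and each matched 1 of the 43383 rows of the expression table. RNA-seq had been performed on GFP-positive cells sorted from Aldh1l1-eGFP mice, in which the Aldh1l1 promoter drives GFP in astrocytes, with tissue taken from the somatosensory cortex of males at 4 weeks of age. Upper-layer astrocytes (ULAs) came from tissue of layers II to IV, and deep-layer astrocytes (DLAs) from tissue of layers V and VI. Both groups carried the same transgene and received no treatment, and each held 3 libraries, 1 from each of 3 brains, so that every brain gave a pair. The dissected pieces held neither the outermost layer nor the white matter, and covered the zone where upper and deep layers meet only in part. The question of the comparison is whether astrocytes of different layers differ in these genes.

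GABA released at synapses is cleared by transporters of the Slc6 family on neurons and astrocytes. Inside the cell, GABA transaminase (Abat) turns it into succinic semialdehyde, which the mitochondrial dehydrogenase Aldh5a1 oxidizes to succinate, a route known as the GABA shunt. Noradrenaline, dopamine and serotonin reach glia through low-affinity carriers such as Slc29a4 and Slc22a3, and are oxidized by the monoamine oxidases of the outer mitochondrial membrane. Maob is known as the monoamine oxidase of astrocytes, and Maoa as the form that prefers serotonin and noradrenaline.

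Expression was given as RPKM, a read count scaled for mRNA length and library depth, so levels can be compared between genes. Library depth, inferred from the smallest RPKM steps, was 19.66 to 29.56 M reads per library. The summed RPKM of 10 astrocyte markers was 12310.9 to 13221.7 in ULAs and 11709.0 to 12882.9 in DLAs. Against this, 8 neuronal markers summed to between 6.54 and 9.40 RPKM per library and 8 markers of GABAergic interneurons to between 0.26 and 0.65, with Lhx6 listed at 0 in all 6 libraries. Microglial markers summed to 12.9 to 13.8 RPKM in ULAs and 8.58 to 11.7 RPKM in DLAs, and those of meningeal fibroblasts to 3.07 to 4.10 and 4.95 to 6.27 RPKM, in both cases without overlap between the layers. Each sum mostly followed 1 gene. P2ry12 had 11.63 to 12.6 RPKM in ULAs and 7.76 to 10.22 in DLAs, and Col1a1 had 2.49 to 3.29 and 3.67 to 5.66. No other microglial marker exceeded 0.89 RPKM, and no other fibroblast marker exceeded 1.12 RPKM. Pericyte and smooth muscle markers summed to 15.1 to 22.0 RPKM in ULAs and 11.2 to 18.0 RPKM in DLAs, and Rgs5, a pericyte marker, was called higher in ULAs. Of the 10 astrocyte markers, only Gfap was called, higher in DLAs. Slc1a2, Slc1a3 and Gja1 were not called but were higher in ULAs without overlap. For Slc1a3 the values were 2437.88 to 2697.38 RPKM in ULAs and 1789.9 to 2000.03 RPKM in DLAs. The other astrocyte markers overlapped between the layers. Endothelial (0.44 to 3.11) and oligodendrocyte precursor (0.18 to 0.93) markers were low. The part of these markers in the values of Slc6a11, Maoa and the other members was not tested. Markers of mature oligodendrocytes differed by layer and by brain, with sums of 35.8, 37.1 and 107.5 RPKM in ULAs (brains 1, 2 and 3 in this order) and 105.3, 124.8 and 205.7 RPKM in DLAs, and 5 of the 6 were called higher in DLAs. None of these 6 markers was at 0. In bulk RNA, fewer cells of a type and less RNA per cell cannot be told apart.

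The members covered a wide range of levels. Averaged over the 6 libraries, Slc6a11 stood at 98.3 RPKM, Maob at 71.0, Abat at 49.8, Maoa at 22.1, Aldh5a1 at 5.97 and Slc29a4 at 0.0467. The ranges of Slc6a11 (62.05 to 143.15 RPKM) and Maob (59.59 to 90.52 RPKM) overlapped, whereas every other member lay wholly below the one ranked before it. Among the 13999 rows with a mean of at least 1 RPKM, Slc6a11 was at percentile 94.7 and Aldh5a1 at percentile 41.1. Slc29a4 was below that minimum and was not tested.

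None of the 5 members tested passed an adjusted p of 0.05 for a difference between ULAs and DLAs in limma, in which the brain was a term of the model. Over all rows tested, 100 (0.714%) were called higher in ULAs and 128 (0.914%) higher in DLAs, or 138 and 103 under quantile normalization. At an unadjusted p under 0.05, 1 member (Slc6a11) was higher in ULAs and 1 (Maoa) was higher in DLAs, beside 5.64% and 10.8% of all rows. The sign was the same in 3 of 3 brains for Slc6a11 and Abat, higher in ULAs, and for Maoa, higher in DLAs, which was also the case for 15.2% and 23.2% of all rows. Only Maoa had no overlap between the layers, which among all rows held for 9.27% towards DLAs and 6.59% towards ULAs. The median log2 fold change of the 5 members (upper/deep) was 0.02, against −0.03 over all rows.

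**Figure D1:**
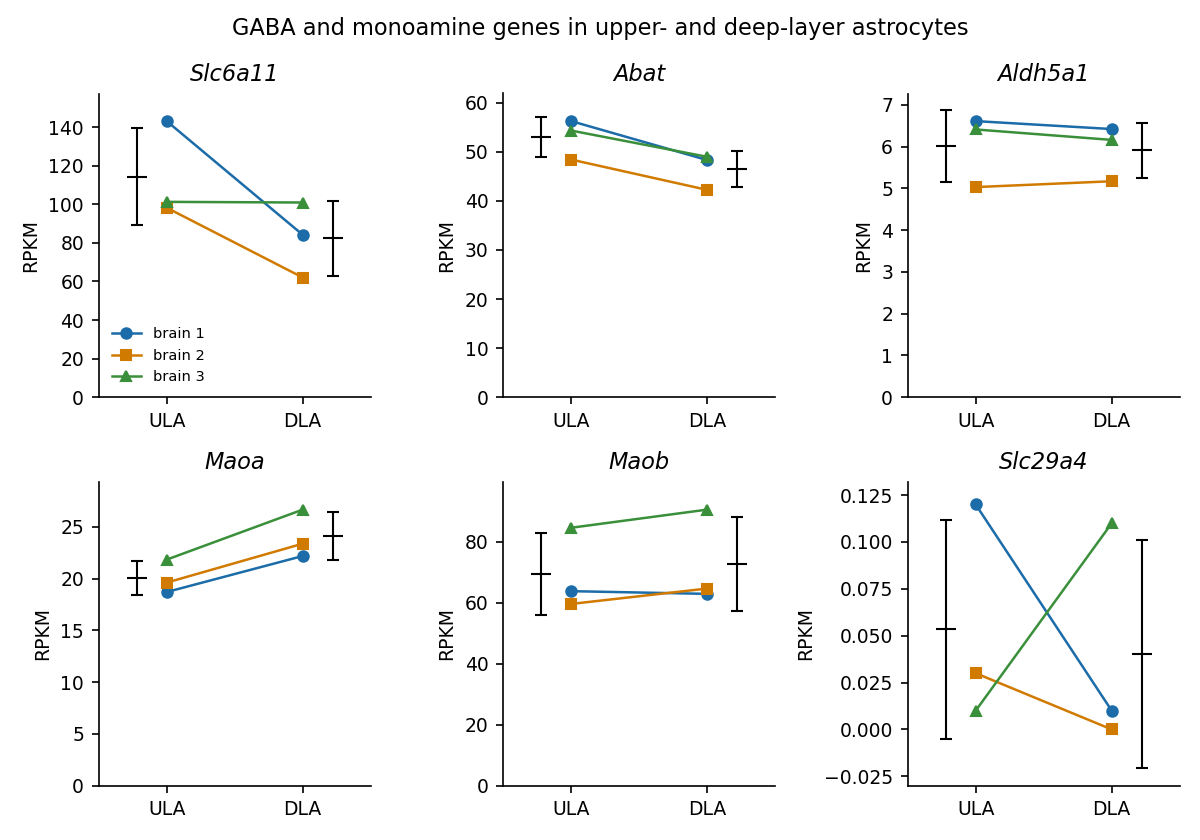
RPKM (linear vertical axes) of the 6 members in ULAs and DLAs, with a line joining the pair of libraries from each brain and black bars for the mean ± SD of 3 libraries. Slc6a11 lies flat in brain 3 at about 101 RPKM and slopes down towards DLAs in brains 1 and 2, Maoa slopes up in all 3 brains, and Slc29a4 stays at or below 0.12 RPKM.

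Promoter sequences were at hand for 4 of the 6 members, and 3 are shown because these genes stood apart in the values just given: Slc6a11 and Maoa had the lowest unadjusted p-values in opposite directions, and Slc29a4 was nearly silent. Each covers 250 bases before to 50 bases after the RefSeq start, 5′ to 3′ on the gene's strand, in the GRCm38.p6 assembly (not mm9, the build of all gene coordinates given here): chr6:114130991-114131290 for Slc6a11, chrX:16619448-16619747 for Maoa and chr5:142701851-142702150 for Slc29a4. Capitals mark the GC box, GGGCGG on either strand, a motif bound by factors of the Sp family, with overlapping matches counted separately.
Slc6a11: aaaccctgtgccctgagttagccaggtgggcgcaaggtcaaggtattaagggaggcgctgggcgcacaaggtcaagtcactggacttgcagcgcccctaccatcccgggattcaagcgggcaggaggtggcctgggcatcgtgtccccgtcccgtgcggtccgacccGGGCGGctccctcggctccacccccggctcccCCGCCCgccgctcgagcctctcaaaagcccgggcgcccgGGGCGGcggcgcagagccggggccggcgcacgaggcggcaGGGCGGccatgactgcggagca
Maoa: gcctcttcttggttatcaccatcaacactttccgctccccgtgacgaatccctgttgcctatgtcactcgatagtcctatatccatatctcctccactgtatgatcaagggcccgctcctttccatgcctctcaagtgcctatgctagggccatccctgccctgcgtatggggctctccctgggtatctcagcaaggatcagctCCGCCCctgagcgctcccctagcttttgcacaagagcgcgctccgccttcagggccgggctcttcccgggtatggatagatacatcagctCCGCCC
Slc29a4: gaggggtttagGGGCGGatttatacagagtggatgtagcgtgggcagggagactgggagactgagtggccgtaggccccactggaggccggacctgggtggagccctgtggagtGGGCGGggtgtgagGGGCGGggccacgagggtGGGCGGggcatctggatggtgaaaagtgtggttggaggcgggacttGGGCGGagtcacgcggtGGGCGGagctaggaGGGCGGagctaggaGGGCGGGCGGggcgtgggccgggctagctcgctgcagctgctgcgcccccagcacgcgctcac
The counts were 4 matches for Slc6a11, 2 for Maoa and 9 for Slc29a4, and 0 for the promoter of Aldh5a1, which is not shown. At least 1 match was present in 35.7% of the 32851 promoters of the same length, 2 or more in 19.5%, 4 or more in 5.49% and 9 or more in 0.125%. The GC content of the windows was 72.3% for Slc6a11, 57.7% for Maoa and 70.0% for Slc29a4, against a median of 52.7%. These matches describe the letters of the windows only.

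Slc6a11 (GAT-3, NM_172890), the GABA transporter typical of astrocytes, is a gene of 14 exons on chromosome 6 from 114081235 to 114199880 (mm9, plus strand). Its level was 143.15, 98.23 and 101.27 RPKM in ULAs, for brains 1, 2 and 3 in turn, and 84.19, 62.05 and 100.94 RPKM in DLAs. Brain 1 gave the highest ULA value and brain 2 the lowest DLA value, while the libraries of brain 3 were level with each other, so that the layers overlapped. The upper/deep ratio was accordingly 1.70, 1.58 and 1.003. The mean was 114.2 ± 25.1 RPKM (SD, n = 3) in ULAs and 82.4 ± 19.5 RPKM in DLAs, and the log2 fold change on the log2(RPKM + 1) scale was 0.47 (SE 0.14, 95% interval 0.16 to 0.79, adjusted p = 0.141). Without brain 3, the log2 fold change was 0.71 and the adjusted p 0.00011, in a comparison in which 3.04% of all rows were called higher in ULAs. Without brain 1 it was 0.33 (adjusted p = 0.721), and over 11 alternatives the adjusted p ran from 0.00011 to 0.721. The values rest on 4959 to 14231 reads per library, and the row shares no exon base with another row. The DLA library of brain 3 also had the highest oligodendrocyte marker sum, 205.7 RPKM, and the neuronal marker sum was 9.31, 8.67 and 9.40 RPKM in ULAs and 7.14, 8.87 and 6.54 RPKM in DLAs. The part of either in the Slc6a11 values was not tested.

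Among other Slc6 carriers, Slc6a12 (BGT-1) and Slc6a13 (GAT-2), which also take up GABA, were listed at 0 in all 6 libraries. For Slc6a13, 3 reads, the limit that a count of 0 allows, correspond to 0.0472 to 0.0710 RPKM. The vesicular GABA transporter Slc32a1, a marker of neurons that release GABA, reached 0.03 RPKM in 1 library and was at 0 in the others. The family neighbours Slc6a6 (taurine) and Slc6a8 (creatine) are not primarily GABA carriers, and of these only Slc6a8 was tested (log2 fold change −0.13, adjusted p = 0.701).

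Abat (NM_001170978 and NM_172961), which removes the amino group of GABA, has 16 exons on chromosome 16 from 8513522 to 8621660 (mm9, plus strand). It was measured at 56.26, 48.42 and 54.33 RPKM in ULAs and at 48.32, 42.24 and 48.98 RPKM in DLAs. Brain 2 was lowest in both layers, and its ULA value lay just under the highest DLA value. ULAs averaged 53.0 ± 4.08 RPKM (SD, n = 3) and DLAs 46.5 ± 3.72 RPKM, a log2 fold change of 0.18 (SE 0.10, 95% interval −0.03 to 0.40, adjusted p = 0.376). Of the 4635 exon bases of the row, 2315 (49.9%) are also covered by ENSMUSG00000051226, a row of 1 exon on the opposite strand. That row had 53.01, 43.78 and 52.39 RPKM in ULAs and 44.63, 38.08 and 43.87 RPKM in DLAs, close to the Abat values. The library kit does not mark strand, so reads of the shared bases cannot be assigned to either gene.

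Aldh5a1 (NM_172532), on chromosome 13 from 24999448 to 25029530 (mm9, minus strand, 10 exons), completes the GABA shunt as succinic semialdehyde dehydrogenase. Its level was lower than that of Abat, with 6.61, 5.03 and 6.41 RPKM in ULAs and 6.42, 5.17 and 6.16 RPKM in DLAs. The layers overlapped entirely, and brain 2 was again lowest in both. The log2 fold change was 0.02, with a 95% interval of −0.26 to 0.30 (adjusted p = 0.962). On the scale of RPKM + 1, this interval spans folds of 0.834 to 1.23. Of its 5647 exon bases, 999 (17.7%) are shared with 4 rows on the opposite strand, 1 of which, 4932702P03Rik, had 25.50 to 37.44 RPKM. That row shares 567 of its 690 bases with Aldh5a1. Its values rest on 346 to 681 reads per library, against 574 to 1028 reads for Aldh5a1. A large part of the Aldh5a1 reads may thus lie in shared bases, so its level and its layer comparison are uncertain.

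Of 14 symbols listed for the GABA shunt and the enzymes it joins, 13 matched a row, and all 13 rows were tested. None was called in either direction, 3 had positive and 10 negative log2 fold changes (upper/deep), and their median was −0.10 against −0.03 over all rows. This distance was smaller under quantile normalization (−0.0147 against 0.00196) and after the correction for mRNA length (−0.0398 against −0.0068). Over all rows, 6295 were positive and 7704 negative. At an unadjusted p under 0.05 there was 1, Suclg1, a subunit of succinyl-CoA ligase (log2 fold change −0.22, 95% interval −0.43 to −0.00243, adjusted p = 0.30). Of all rows, 10.8% reached this level towards DLAs. The Suclg1 value kept its sign in all 11 alternatives and ranged from −0.27 to −0.11. It was −0.13 (SE 0.08) under quantile normalization and −0.11 (SE 0.08) after the length correction. Among 9 rows for GABA synthesis, Gad1 and Gad2, the glutamate decarboxylases of GABAergic neurons, stayed at 0.08 to 0.25 RPKM (7 to 21 reads) and 0.01 to 0.28 RPKM (1 to 40 reads). In this list, 4 rows were tested, 0 were called, and at an unadjusted p under 0.05 there were also 0. Its most abundant gene was Sat1, an acetyltransferase of polyamines, at 465.44 to 821.58 RPKM. Aldh9a1, a dehydrogenase of the route from putrescine to GABA, had 43.43 to 53.96 RPKM, with a log2 fold change of −0.01 (adjusted p = 0.973).

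**Figure D2:**
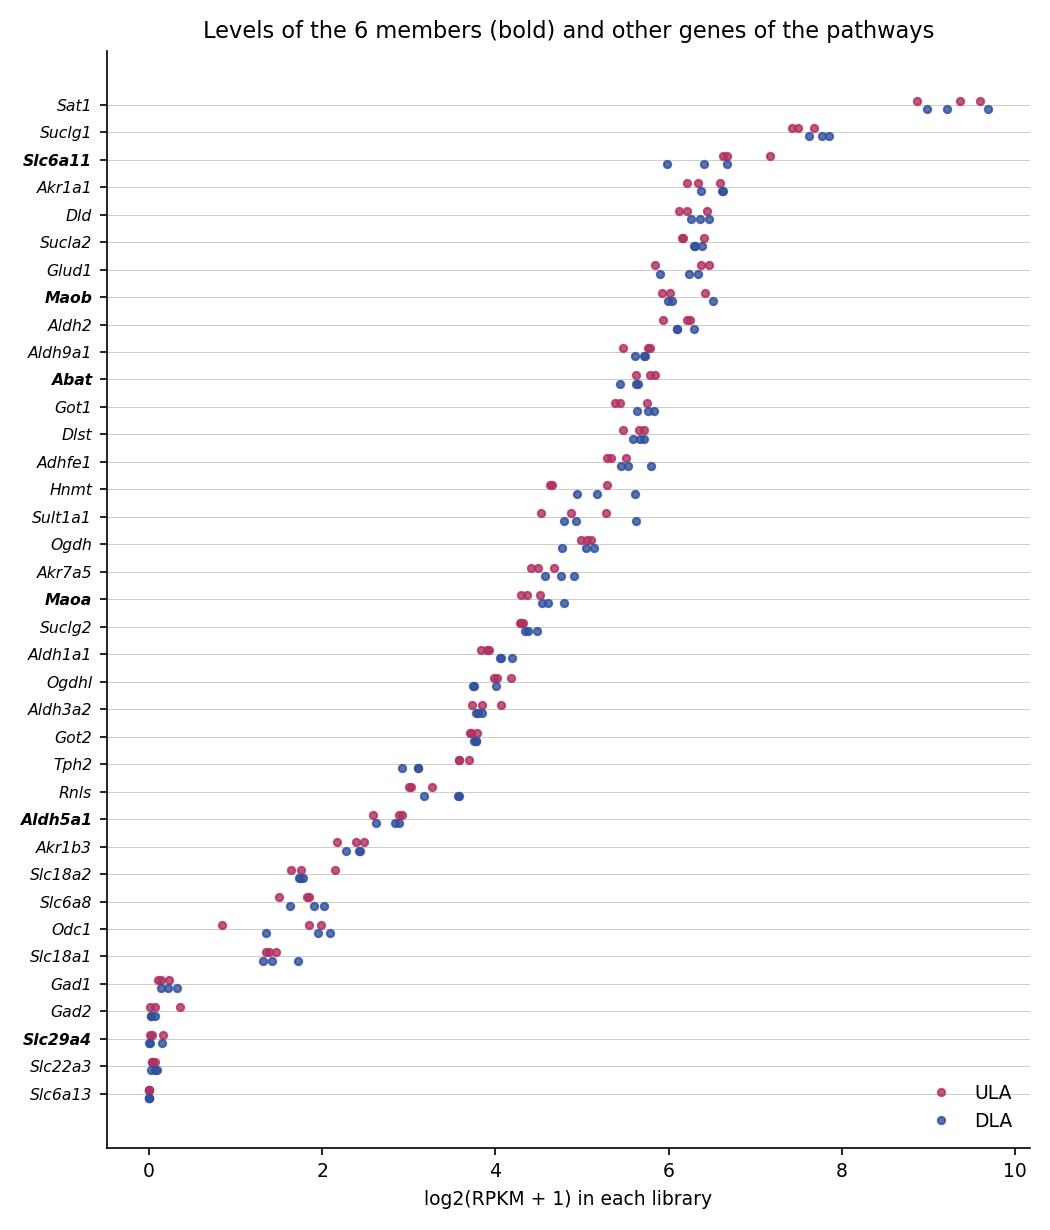
Level of each gene in each library as log2(RPKM + 1), with ULA libraries in red and DLA libraries in blue, for the 6 members (bold), the other pathway genes with a mean of at least 1 RPKM and 4 genes of low level. Sat1 is at the top, the GABA synthesis genes Gad1 and Gad2 lie near 0 together with Slc29a4, Slc22a3 and Slc6a13, and Maoa and Tph2 are among the genes whose ULA and DLA points do not overlap.

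Maoa (NM_173740) and Maob (NM_172778), the paired monoamine oxidases, have 15 exons each and face each other on chromosome X. Maoa runs from 16196824 to 16264938 on the plus strand and Maob from 16286407 to 16394492 on the minus strand (mm9), with 21.468 kb between their 3′ ends. Maoa had 18.70, 19.61 and 21.83 RPKM in ULAs, in the order of brains, and 22.18, 23.37 and 26.66 RPKM in DLAs. Each DLA value was above each ULA value, by a narrow margin between brain 3 in ULAs and brain 1 in DLAs, and the upper/deep ratio was 0.843, 0.839 and 0.819. The mean was 20.0 ± 1.61 RPKM (SD, n = 3) in ULAs and 24.1 ± 2.32 RPKM in DLAs. With a log2 fold change of −0.25 (SE 0.10, 95% interval −0.48 to −0.02), Maoa had an adjusted p of 0.273, and it did not pass under any of 11 alternatives (0.214 to 0.886). The log2 fold change without 1 brain stayed between −0.26 and −0.24. The oligodendrocyte marker sums were also higher in DLAs in each brain, and their part in the Maoa values was not tested.

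Maob was at 63.78, 59.59 and 84.57 RPKM in ULAs and 62.89, 64.64 and 90.52 RPKM in DLAs. Its values followed the brain and not the layer, since both libraries of brain 3 were above all 4 libraries of the other brains. The means over both layers were 63.3, 62.1 and 87.5 RPKM in brains 1, 2 and 3. Between the layers the log2 fold change was −0.06 (SE 0.10, 95% interval −0.28 to 0.15, adjusted p = 0.789), with 69.3 ± 13.4 RPKM (SD, n = 3) in ULAs and 72.7 ± 15.5 RPKM in DLAs. The interval, taken as a fold of RPKM + 1, ran from 0.824 to 1.11. Brain 3 was also the brain with the highest oligodendrocyte marker sum in each layer, and the part of those cells in the Maob level was not tested.

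Maob was the more abundant oxidase in every library. The Maob/Maoa ratio was 3.41, 3.04 and 3.87 in ULAs and 2.84, 2.77 and 3.395 in DLAs, and was thus higher in ULAs in 3 of 3 brains. The layers overlapped when the pairs were set aside. The ratio averaged 3.44 ± 0.418 (SD, n = 3) in ULAs and 2.999 ± 0.345 in DLAs, with a mean log2 difference of 0.20, for which an exact 2-sided sign-flip permutation test over the brains gave p = 0.25, the smallest that 3 pairs allow. Neither oxidase shares an exon base with another row, and their values rest on 1902 to 3279 reads for Maoa and 3065 to 6453 reads for Maob.

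**Figure D3:**
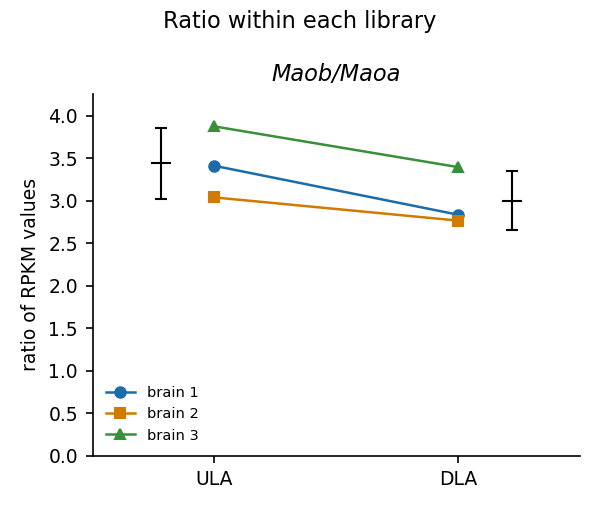
Ratio of RPKM values within each library (vertical axis from 0) for Maob over Maoa, with a line for each brain and black bars for the mean ± SD of 3 libraries. The lines slope down from ULAs to DLAs in all 3 brains, and all 6 ratios lie between 2.77 and 3.87.

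Slc29a4 (PMAT, NM_146257), a plasma membrane carrier of monoamines, has 11 exons on chromosome 5 from 143178055 to 143198443 (mm9, plus strand). It was listed at 0.12, 0.03 and 0.01 RPKM in ULAs and at 0.01, 0 and 0.11 RPKM in DLAs. These values amount to 8, 2 and 1 reads and to 1, 0 and 9 reads, respectively, and only the ULAs of brain 1 and the DLAs of brain 3 exceeded 3 reads (0.0440 and 0.0364 RPKM in these libraries). A difference between the layers was not detectable at this depth, and no fold is given. Slc22a3 (OCT3), the other low-affinity monoamine carrier often described in astrocytes, was equally low, at 0.02 to 0.07 RPKM. The high-affinity carriers of noradrenaline, dopamine and serotonin (Slc6a2, Slc6a3 and Slc6a4) did not exceed 0.11 RPKM. Of 9 monoamine transport rows, 2 were tested, the vesicular transporters Slc18a1 and Slc18a2, at 1.5 to 2.31 and 2.12 to 3.42 RPKM, and neither was called (adjusted p of 0.833 and 0.802) or reached an unadjusted p under 0.05.

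Of 12 rows for other steps of monoamine breakdown and synthesis, 7 were tested and none was called, with 2 positive and 5 negative log2 fold changes and a median of −0.03 (4 positive and 3 negative after the correction for mRNA length). The aldehyde dehydrogenase Aldh2, which oxidizes the aldehydes that monoamine oxidases form, was at 69.3 ± 7.86 and 70.6 ± 5.67 RPKM (log2 fold change −0.03, 95% interval −0.29 to 0.24, adjusted p = 0.927). The Aldh2 difference turned positive when brain 2 was left out, with length-corrected values and under quantile normalization.

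At an unadjusted p under 0.05, the list held Tph2 towards ULAs and Hnmt and Rnls towards DLAs, of which Tph2 and Rnls were singled out after their values were seen. This level was reached by 5.64% of all rows towards ULAs and 10.8% towards DLAs. Hnmt, which methylates histamine, had 23.70, 24.21 and 37.99 RPKM in ULAs and 35.21, 29.79 and 47.90 RPKM in DLAs. It was higher in DLAs within each brain although the layers overlapped, with a log2 fold change of −0.39 (95% interval −0.63 to −0.15, adjusted p = 0.113). The adjusted p over the alternatives ran from 0.0468 without brain 3, where 687 rows in all were called towards DLAs, to 0.797 without brain 1. Oligodendrocyte marker sums were highest in brain 3 too, and their part was not tested. Tph2, a tryptophan hydroxylase of serotonin synthesis that is known from raphe neurons, had 10.96, 12 and 10.99 RPKM in ULAs and 7.61, 6.60 and 7.62 RPKM in DLAs, without overlap. Such a lack of overlap towards ULAs held for 6.59% of all rows. The log2 fold change of Tph2 was 0.57 (SE 0.13, 95% interval 0.29 to 0.85, adjusted p = 0.057), and it passed with a minimum of 5 RPKM (adjusted p = 0.0358), with median centring (0.0471) and when brain 3 was left out (0.0104), while the highest adjusted p of any alternative was 0.384. With brain 3 left out, 3.04% of all rows were called higher in ULAs, against 0.714% in the main fit. Rnls, a flavin-dependent oxidase, had a log2 fold change of −0.34 (95% interval −0.63 to −0.05, adjusted p = 0.235). Th, Dbh and Tph1, other enzymes of monoamine synthesis, were at or near 0, with 0.06 RPKM as their highest value. Ddc, a further enzyme of monoamine synthesis, had 0.68 to 0.81 RPKM in ULAs and 0.3 to 0.67 RPKM in DLAs, without overlap. These Ddc values rest on 19 to 44 reads per library and were not tested.

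**Figure D4:**
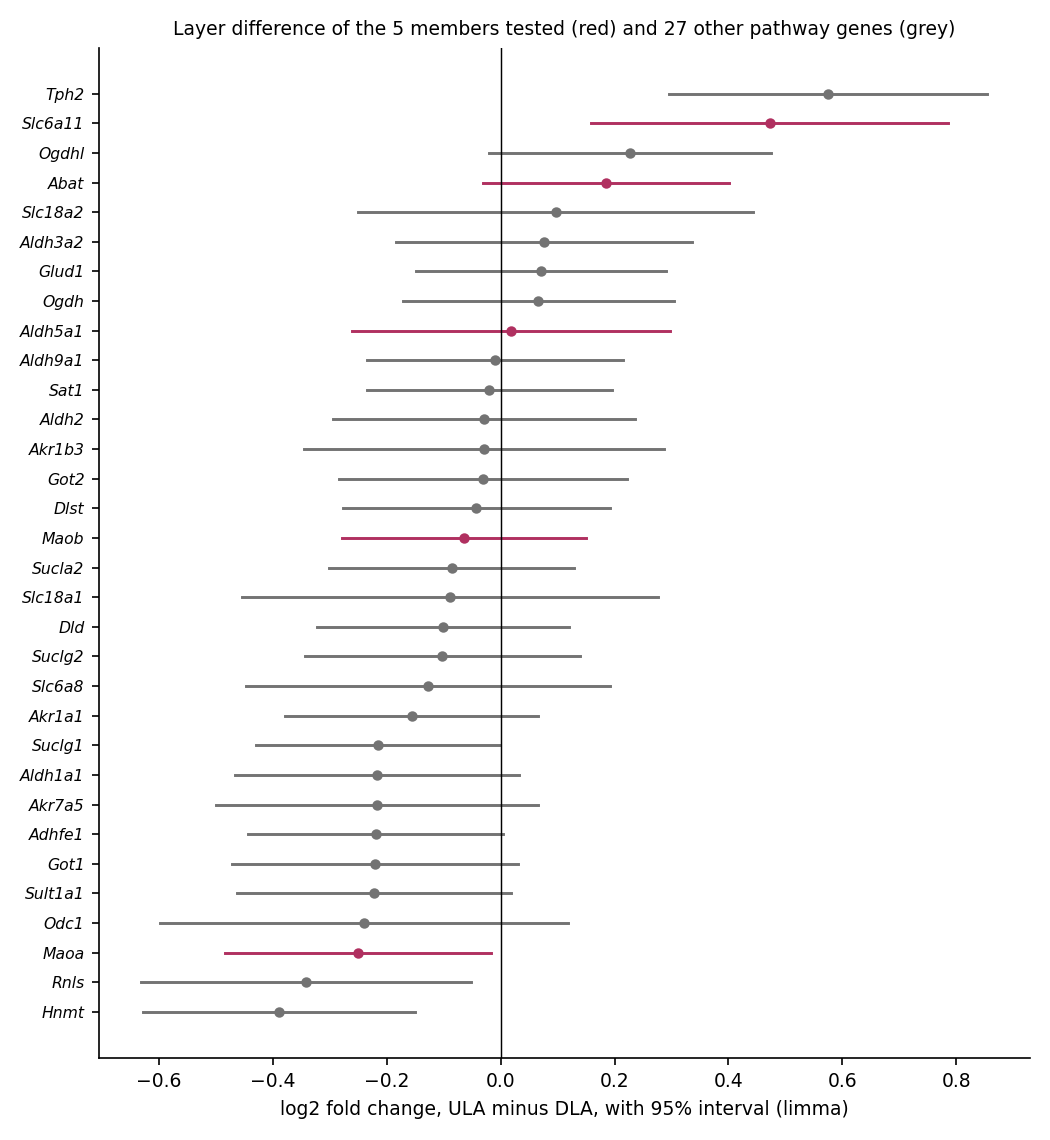
Log2 fold change between ULAs and DLAs (horizontal axis, positive where ULAs were higher) with its 95% interval from limma for the 5 members tested (red) and 27 other pathway genes (grey). The intervals of Slc6a11 and Maoa leave out 0 on opposite sides before adjustment, and those of Abat, Aldh5a1 and Maob include it.

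Over the 5 lists of other pathway genes together, 27 of 48 rows were tested and 0 passed in limma, against 1 towards ULAs and 3 towards DLAs at an unadjusted p under 0.05, a level that 5.64% and 10.8% of all rows reached. Of the 27 rows, 6 had positive and 21 had negative log2 fold changes, with a median of −0.09 against −0.03 over all rows, of which 6295 were positive and 7704 negative. Under quantile normalization the split was 10 positive and 17 negative, with medians of −0.0343 for the lists and 0.00196 for all rows. The smallest adjusted p was that of Tph2.

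The rows most like each member were those with the highest Pearson's r of log2(RPKM + 1) over the 6 libraries, which share brains and layers, among RefSeq rows with a mean of at least 10 RPKM (5715 rows, or 5716 for Aldh5a1). They were Efr3a and Pdcd4 for Slc6a11 (r of 0.995 and 0.993), Prelp and Hiatl1 for Abat (0.984 and 0.980), 2610044O15Rik8 and Mxd4 for Aldh5a1 (0.994 and 0.994), Trmt2a and Cox5a for Maoa (0.994 and 0.989), and Cept1 and Pgm1 for Maob (0.998 and 0.981). With so many rows and 6 points, values of this size are a description only.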

How the data were processed

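RNA of sorted ULAs and DLAs had been amplified as cDNA (SMART-Seq v4), turned into Nextera XT libraries and read from 1 end for 36 bases. The authors deposited RPKM values for 43383 rows, 1 per symbol, with the exons and mRNA length of each. The submitters' processing notes name mm9, bcl2fastq 1.8.4 and CASAVA 1.8.2, and the aligner and counting program are not given in the sources used here. The 13999 rows that averaged at least 1 RPKM were tested on log2(RPKM + 1) with limma 3.58.1 in R 4.3.3 (lmFit, eBayes with trend; brain and layer as terms; 2-sided, Benjamini-Hochberg over all rows). Each number from 1 to 3 in the labels was taken as a brain, as the study pairs them, and deviations from the layer mean correlated across genes within a number (r = 0.42, 0.33 and 0.34). The values between numbers (r from −0.20 to −0.16) add no separate evidence, because deviations from a layer mean sum to 0.

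Adding 1 to each value makes fold changes of low genes appear smaller. Depth was the number of reads at which the RPKM of rows up to 500 bases equalled those of whole reads, with RPM and RPKM each cut to 2 decimals. At least 99.947% of the values did so, against at most 78.7% at the next best depth. Read numbers and limits from 3 reads cover counting error only, and PCR copies are not independent molecules. The fit was tested on simulated data, but the outcome is not reported here and no result rests on it. The members and lists were chosen with earlier results of these data known. The rule for named genes took the 6 members, Slc6a13, Gad1, Gad2, Slc22a3, Aldh2, Hnmt, any pathway gene that passed and the 2 rows most like each member, and other pathway genes were named after their values were seen. Of 50 symbols in 5 pathway lists, 48 matched a row, and some results are not reported here. Alternatives were the model without brain, a pseudocount of 0.1, no filter, a minimum of 5 RPKM, median centring, quantile normalization, no variance trend, a correction for mRNA length (loess, span 0.5) and each brain left out. Promoter sequences came from RefSeq. Python 3.11.15, pandas 2.3.3, numpy 2.4.6 and matplotlib 3.10.9 were used for the remaining steps.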

Additional observations from a re-analysis of the deposited data

How the results depend on the processing

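Abat and Maoa kept their direction and stayed short of the threshold under all 11 alternatives. Slc6a11 passed without brain 3, and the log2 fold change ranged from 0.33 to 0.71 with 1 brain left out, so the number of members called higher in ULAs ran from 0 to 1. Aldh5a1 turned to −0.0627 after the correction for mRNA length and Maob to 0.0162 under quantile normalization. Aldh2 turned to 0.0469 and 0.0335 under quantile normalization and the length correction, and ranged from −0.118 to 0.131 with 1 brain left out. The log2 difference of the Maob/Maoa ratio between layers ranged from 0.16 to 0.23 with 1 brain left out. The causes were not tested.

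Without the replicate block, that is, with the brain left out of the model, 23 rows were called towards ULAs and 18 towards DLAs, and no member changed its call. With no filter, 0 and 0 of 27963 rows were called in limma, against 1124 and 1675 at an unadjusted p under 0.05. Without the variance trend 65 and 79 rows were called, and after the length correction 77 and 77. With 1 brain left out, the numbers ran from 104 to 426 and from 126 to 687, highest without brain 3 in each case. Depth limits Slc29a4, which had at most 9 reads per library.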
